A study of Homo sapiens with 12 samples.

Results

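The comparison concerned how differently 2 multiple myeloma cell lines, MM.1S and U266, responded to PRIMA-1Met. For each gene the change in MM.1S (PRIMA-1Met minus control) was taken, and the change in U266 was subtracted from it. It used 8 of the 12 arrays of the study: 2 of MM.1S treated with 20 µM PRIMA-1Met, 2 of MM.1S given DMSO, 2 of U266 treated with 40 µM PRIMA-1Met and 2 of U266 given DMSO, all for 8 h. MM.1S is labelled p53 wild type and U266 p53 mutant. The other 4 arrays, of the line 8226R5 (labelled p53 null, 40 µM or DMSO), entered the normalisation, the detection filter, the estimate of each gene's spread and a side comparison. The filter asked for detection on 2 or more of all 12 arrays, so 670 of the 11305 genes tested, PMAIP1 and CD3D among them, passed it only with 8226R5, and 500 of these were detected on none of the 8 arrays. Cell line, p53 status and dose all differ between the 2 arms, so their parts in any difference cannot be told apart. The labels name Illumina HumanHT-12 beadchips as the platform and total RNA as the material, and they describe wells seeded in duplicate, so p-values measure the spread between wells, which may be technical.

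Multiple myeloma is a cancer of plasma cells, the antibody-secreting end stage of the B lineage. PRIMA-1Met, also known as APR-246, is converted in cells to a compound that binds cysteine thiols, among them those of p53, glutathione and thioredoxin reductase. Agents of this kind are known to engage several stress programmes, including heat shock proteins, which refold damaged proteins, and metallothioneins, which hold zinc and copper through their many cysteines. Among 10 plasma cell markers, all 10 were detected on both arrays of treated and of control MM.1S cells, while 8 were detected on both arrays of treated U266 and 9 on both arrays of control U266, where CD38 was not above background. Their summed linear level was lower after treatment in both lines. It was 41335 and 42075 in treated MM.1S against 87152 and 94536 in controls, and 24066 and 25190 in treated U266 against 47464 and 49301 in controls.

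Treated MM.1S cells gave dimmer arrays. Probes detected at p under 0.01 numbered 11815 and 12093 in PRIMA-1Met-treated MM.1S against 15010 and 15389 in its controls, and 14982 and 14197 in treated U266 against 16025 and 15849 in its controls. The 90th percentile of the signal before normalisation between arrays was 212 and 215 in treated MM.1S against 836 and 789 in MM.1S controls, and 549 and 522 in treated U266 against 904 and 906 in U266 controls. All values below are log2 signals after the authors' quantile normalisation, which gives every array the same distribution. The cause of the dimmer arrays was not tested. Fewer cells and less RNA per cell, for example, cannot be told apart in these values.

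The 2 lines responded differently at most genes measured. The difference in response passed an adjusted p of 0.05 in limma's moderated test for 7227 of 11305 genes (63.9%), of which 2497 (22.1%) lay above 0, meaning a higher change in MM.1S, and 4730 (41.8%) lay below 0. The MM.1S response itself passed for 8481 genes (75%) and the U266 response for 3188 genes (28.2%). Over all genes the median difference was -0.28, with a median response of -0.34 in MM.1S and -0.01 in U266. A difference past the threshold and of at least 2-fold was found for 3089 genes, 1187 above and 1902 below 0.

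Many of these genes moved the same way in both lines and differed in size. Of 1938 genes called in both lines with the same sign, the difference was called for 1225, with the larger change in MM.1S for 1169 and in U266 for 56. The remaining classes were genes called in opposite directions (725, 6.41%), genes that changed by at least 1 log2 unit in MM.1S only (2085, 18.4%) and genes that did so in U266 only (48, 0.425%). A gene counted as moving in 1 line only when the difference was called and the other line both missed the threshold and changed by under 0.5 log2 units. At the edge of that class, MTRR with -1.0002 in MM.1S counted and SLC22A5 with -0.9995 did not, and RORA with -1.01 in U266 counted and DTX3L with -0.99 did not.

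**Figure D1:**
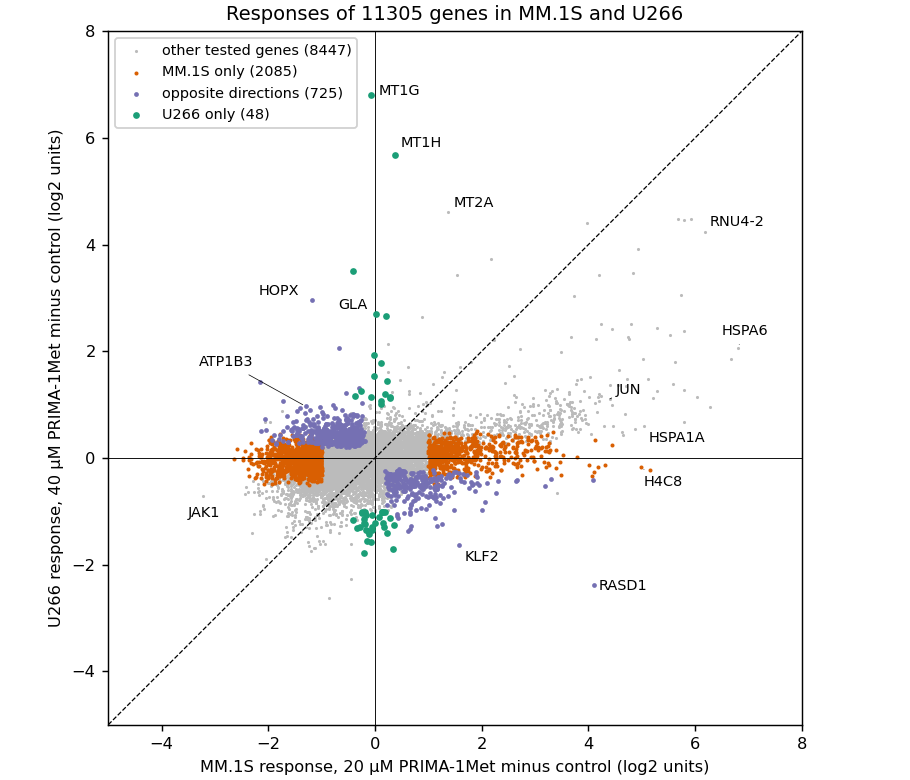
Response of each gene in MM.1S at 20 µM (x axis) and in U266 at 40 µM (y axis), as PRIMA-1Met minus control in log2 units, with 1 point per gene. Points far right of the dashed line of equal response include histone, small nuclear RNA and heat shock genes, the metallothioneins MT1G and MT1H stand at the top near 0 on the MM.1S axis, and RASD1 lies alone at the lower right.

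The balance between differences above and below 0 depended on how arrays were put on 1 scale. Of the called differences 34.6% lay above 0 with the authors' values, 34.9% with background-corrected and quantile-normalised signals (neqc), 17.7% when arrays were scaled to the median of all probes and 62.4% when they were scaled to the median of probes detected on all 12 arrays. The median difference over all genes under the last 2 scalings was -0.86 and 0.32. Of all genes, 13.1% had a called difference above 0 and 61.1% below under scaling to the median of all probes, and 45.6% above and 27.5% below under scaling to probes detected on all 12 arrays, against 22.1% and 41.8% with the authors' values. Counts for gene groups are to be read beside these shares, and each group's median difference is given relative to that of all genes. A difference called with the same sign under all 5 settings was found for 4143 genes, 1092 above and 3051 below 0. Opposite responses were called under all 5 for 38 genes, MM.1S-only responses for 31 and U266-only responses for 0, although each of the 5 settings on its own called between 45 and 199 U266-only genes.

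**Figure D2:**
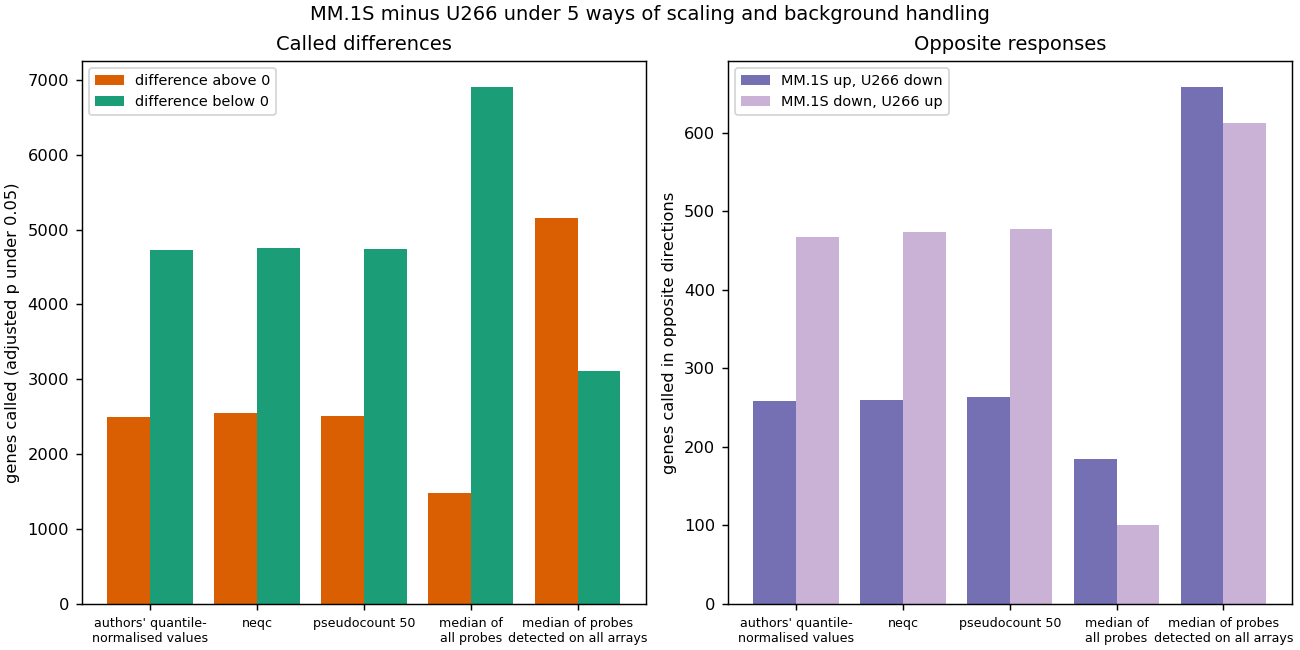
Number of genes with a called difference above or below 0 (left) and number called in opposite directions (right) under 5 ways of scaling and background handling. With the authors' values 2497 differences lay above and 4730 below 0, while scaling to probes detected on all arrays gave 5157 above and 3104 below.

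RASD1 and KLF2 had the largest opposite responses, ranked by the smaller of the 2 changes. Of the 725, 258 (2.28%) rose in MM.1S and fell in U266, and 467 (4.13%) fell in MM.1S and rose in U266. The changes were mostly modest, with a median size of 0.70 log2 units in MM.1S and 0.43 in U266. Each change was at least 0.5 log2 units in 194 genes, and at least 1 in 8 genes (0.0708%). Leaving out any 1 of the 4 U266 arrays lowered the count to between 375 and 448, and leaving out either treated MM.1S array raised it to 969 or 975.

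RASD1 encodes a Ras-like GTPase first found as induced by dexamethasone. It read 10.03 and 9.90 in treated MM.1S against 6.09 and 5.64 in MM.1S controls, where it was not above background on either array, and 7.95 and 7.73 in treated U266 against 10.21 and 10.23 in U266 controls. The treated MM.1S arrays thus lay near the untreated U266 arrays. RASD1 rose at least 11.2-fold in MM.1S and fell by 2.38 in U266, a difference of 6.48 ± 0.22 (SE, adjusted p = 9.8e-08) with a lower bound of 5.87. KLF2, a zinc-finger transcription factor of lymphocytes, read 12.90 and 12.93 in treated MM.1S against 11.35 and 11.32 in controls, and 9.77 and 9.80 in treated U266 against 11.42 and 11.41 in controls. The 2 lines began at nearly the same level and ended apart. Its difference was 3.21 ± 0.09 (SE, adjusted p = 7.3e-08). Both genes were called in opposite directions under all 5 scalings.

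The 300 bases from 250 before to 50 after the RefSeq start site (GRCh38.p14) are shown for these 2 genes because they ranked first by the smaller of the 2 changes. The RASD1 window is chr17:17496346-17496645 on the minus strand and the KLF2 window chr19:16324576-16324875 on the plus strand, each written 5′ to 3′ with capitals marking TATAA, the core of a TATA box, on either strand. RASD1 held 1 match, 29 bases before the start, and KLF2 held 2. At least 1 was held by 20.4% of all 35116 promoters and 12.1% of those of tested genes. Neither window held TGACGTCA, the cAMP response element, or TGANTCA, the AP-1 site. The first was present in 1.85% of all promoters and 3.48% of those of tested genes, and the second in 7.71% and 4.54%.
RASD1: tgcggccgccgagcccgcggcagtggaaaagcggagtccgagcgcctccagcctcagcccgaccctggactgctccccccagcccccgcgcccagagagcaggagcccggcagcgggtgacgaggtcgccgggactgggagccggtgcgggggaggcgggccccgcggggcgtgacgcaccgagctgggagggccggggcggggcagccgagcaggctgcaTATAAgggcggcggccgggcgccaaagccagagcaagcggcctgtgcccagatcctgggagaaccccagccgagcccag
KLF2: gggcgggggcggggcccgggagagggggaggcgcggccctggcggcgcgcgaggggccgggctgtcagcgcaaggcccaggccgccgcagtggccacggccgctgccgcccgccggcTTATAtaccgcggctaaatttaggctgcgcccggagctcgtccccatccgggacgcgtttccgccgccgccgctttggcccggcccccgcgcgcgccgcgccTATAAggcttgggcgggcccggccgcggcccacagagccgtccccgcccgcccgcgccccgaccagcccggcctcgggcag

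Of the other genes that rose in MM.1S and fell in U266, CCL4L1, a chemokine gene with a near-identical copy in CCL4, read 12.37 and 12.31 in treated MM.1S against 11.20 and 11.14 in controls, and 7.50 and 7.47 in treated U266 against 8.75 and 8.79 in controls. FAAP100, a subunit of the Fanconi anaemia core complex, read 11.43 and 11.34 against 10.11 and 10.14 in MM.1S, and 7.40 and 7.22 against 8.60 and 8.50 in U266, treated before control. In neither gene did treated and control arrays overlap. BMP8B, a ligand of the TGF-beta family, changed by 1.48 in MM.1S and -0.98 in U266, and C19orf48P by 0.96 and -0.96, with a second C19orf48P probe at 1.21 and -1.03. The differences of these 4 genes lay between 1.92 and 2.50. Scaled to the median of all probes, none of the 4 rose in MM.1S (0.08 for BMP8B, -0.20 for FAAP100, -0.05 for CCL4L1 and -0.38 for C19orf48P), while the differences stayed between 1.12 and 2.03.

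Of the genes that fell in MM.1S and rose in U266, ATP1B3, a beta subunit of the sodium pump, read 8.19 and 8.25 in treated MM.1S against 9.55 and 9.48 in controls, and 10.19 and 10.23 in treated U266 against 9.25 and 9.23 in controls. NSF, the ATPase that recycles vesicle fusion complexes, read 9.52 and 8.98 in treated MM.1S against 10.45 and 10.50 in controls, and 12.24 and 12.08 in treated U266 against 11.26 and 11.25 in controls. Treated and control arrays were separate in both lines. The difference was -2.26 ± 0.11 for ATP1B3 and -2.13 ± 0.21 for NSF (SE), and both genes were called in opposite directions under all 5 scalings. Of the other NSF probes, 1 gave -2.03 in MM.1S and 0.96 in U266. Another gave -0.53 and 0.07, so not every NSF probe showed the rise in U266. ZC3HAV1, a zinc-finger antiviral protein, had a difference of -2.16 by its brightest probe and -0.03 and -0.01 by its other 2 probes, so its opposite response rests on 1 probe. ACTR6, an actin-related protein of chromatin remodelling, had -1.79, and SMNDC1, a splicing factor, had -1.87. For ACTR6 and SMNDC1 the rise in U266 missed the threshold when arrays were scaled to the median of all probes (0.25 and 0.24).

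**Figure D3:**
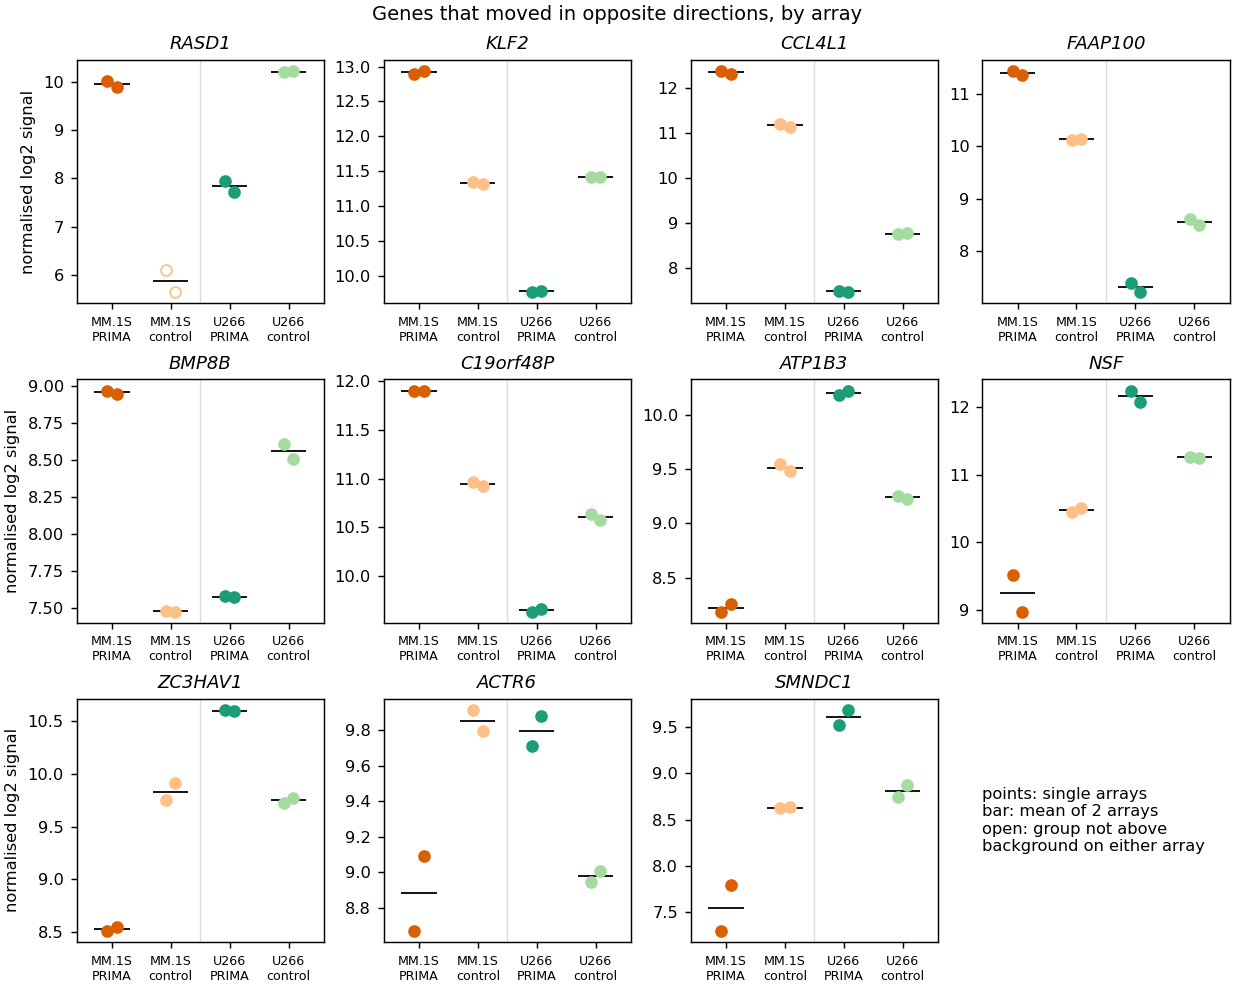
Normalised log2 signal of RASD1 and the 10 genes with the largest opposite responses (ranked by the smaller change, 5 in each direction) among genes detected on all 8 arrays whose treated and control arrays did not overlap, with 1 point per array, a bar at the mean of 2 arrays and open points where a group was not above background. In each panel the treated arrays lie above the controls in 1 line and below them in the other, for example KLF2 at 12.90 and 12.93 in treated MM.1S and 9.77 and 9.80 in treated U266.

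The other genes with at least 1 log2 unit in each direction were TSKU, HOPX, INF2 and MXD1, named here after their values were seen. TSKU was not above background in treated MM.1S or in U266, and INF2 not in treated U266. HOPX was not above background in MM.1S in either group and rose at least 3.07-fold in U266. MXD1, an antagonist of MYC, was not above background in treated MM.1S, where it fell at least 1.49-fold, and rose by 1.08 in U266. ETV5, an ETS-family factor not above background in treated MM.1S, fell at least 2.69-fold there and rose by 0.42 in U266. Its second probe gave -1.16 in MM.1S and -0.48 in U266, a difference of -0.68. In the p53 null line 8226R5, where 1225 of 11305 genes (10.8%) were called, 137 of the 725 opposite genes were called, 96 with the sign of U266 and 41 with the sign of MM.1S. RASD1 rose by 0.76 there (limma adjusted p = 0.016), the sign of MM.1S, while KLF2 fell by 0.58 (adjusted p = 0.001) and ZC3HAV1 rose by 1.09, the signs of U266.

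Genes that changed in MM.1S only comprised 634 rises (5.61%) and 1451 falls (12.8%), with a median size of 1.30 log2 units. Treated MM.1S was not above background on either array in 691 of the falls, and its control was not above background in 172 of the rises. In 301 of the 2085 genes U266 was not above background in either group, so the lack of a call there is no measurement of the gene. APP, the amyloid precursor gene, read 7.87 and 7.61 in treated MM.1S against 9.91 and 9.97 in controls and was detected on neither U266 control array, so its difference of -2.35 had a bound of -2.24. Ranked by the difference among genes detected on all 8 arrays with separated MM.1S groups, the rises were led by SNORD99, H2AC18, H2AC19 and ZFP36L2, and the falls by PSME3, ELOVL5, INSIG2 and ST13.

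ZFP36L2, an RNA-binding protein that speeds mRNA decay, read 11.94 and 11.97 in treated MM.1S against 8.78 and 8.90 in controls, and 8.04 and 8.17 in treated U266 against 8.10 and 8.05 in controls. SNORD99, a small nucleolar RNA that guides RNA modification, read 10.91 and 11.03 against 7.61 and 7.55 in MM.1S and 6.83 and 7.12 against 7.05 and 7.26 in U266, treated before control. Both genes stood over 3 log2 units higher in treated MM.1S while the U266 arrays overlapped. The differences were 3.09 ± 0.12 for ZFP36L2 and 3.57 ± 0.15 for SNORD99 (SE). When arrays were scaled to the median of all probes, both also fell in U266, by 0.59 and 0.82.

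PSME3, the gamma subunit of a nuclear proteasome activator, read 8.52 and 8.63 in treated MM.1S against 10.35 and 10.32 in controls, and 9.21 and 9.18 in treated U266 against 9.06 and 9.04 in controls. ELOVL5, a fatty acid elongase, read 7.20 and 7.24 against 9.01 and 9.14 in MM.1S and 9.10 and 9.16 against 9.08 and 9.12 in U266, treated before control. In both genes the treated MM.1S arrays lay below every other array, with differences of -1.90 ± 0.12 and -1.89 ± 0.11 (SE). Under median scaling of all probes both fell in U266 as well, by 0.46 and 0.57. INSIG2, which holds the sterol sensor in the endoplasmic reticulum, differed by -1.89 and ST13, an HSP70 co-chaperone, by -1.87. The treated MM.1S arrays of ST13 were 7.43 and 8.37, the widest gap between replicates among these 4 falls.

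Genes that changed in U266 only were few, with 17 rises (0.15%) and 31 falls (0.274%). MM.1S was not above background in either group for 27 of the 48, which included 12 of the 17 rises, so only 21 could be compared with a detected MM.1S signal. By the difference, the rises detected on all 8 arrays were led by GLA, the lysosomal alpha-galactosidase A, which read 11.06 and 11.11 in treated MM.1S against 11.10 and 11.02 in controls, and 13.03 and 13.02 in treated U266 against 10.35 and 10.29 in controls. Its U266 arrays stood 2.70 apart while the MM.1S arrays overlapped, a difference of -2.68 ± 0.11 (SE, adjusted p = 2.6e-07). The brightest probe of RNA28SN5, the 28S ribosomal RNA, which has many near-identical copies, gave 0.21 in MM.1S and 2.65 in U266, a difference of -2.44, and a second probe gave 0.31 and 1.70, a difference of -1.39. HSPH1, a large HSP70-family chaperone, gave 0.28 and 1.12, and CYSTM1 0.11 and 1.06.

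Among the falls, CITED2, a co-regulator that binds CBP and p300, read 8.56 and 8.61 in treated MM.1S against 8.77 and 8.71 in controls, and 6.67 and 6.72 in treated U266 against 8.15 and 8.36 in controls. IRF1, a transcription factor of the interferon response, changed by -0.06 in MM.1S and fell by 1.34 in U266, where treated arrays read 8.74 and 8.70 against 10.01 and 10.11 in controls. The treated U266 arrays lay over 1 log2 unit below their controls in both genes, and the MM.1S changes missed the threshold (-0.16 for CITED2). TCEA1, a transcription elongation factor, changed by 0.16 in MM.1S and -1.30 in U266, and its other 2 probes gave differences of 0.11 and 0.74 against 1.46 by the brightest. MRPL20-AS1, an antisense RNA, gave -0.12 and -1.42. With arrays scaled to the median of all probes these 4 genes fell in MM.1S by 1.51 to 1.79, and GLA, RNA28SN5, HSPH1 and CYSTM1 fell there by 1.08 to 1.47.

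Metallothionein genes rose far more in U266 than in MM.1S. Of 8 measured genes of metal response, 7 had a called difference below 0, against 41.8% of all genes, and 0 lay above. In MM.1S 2 of 8 were called up (24.4% of all genes), and in U266 7 of 8 (12.8%). The median difference of the list was 2.13 log2 units below that of all genes, and it lay 2.13 to 3.02 below it under the 5 scalings. MT1G and MT1H were not above background in untreated or treated MM.1S or in untreated U266, and rose at least 84.7-fold and 17.4-fold in U266. The metallothionein coding sequences are close to one another, and probes for 1 member may also read others.

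MT1G read 5.35 and 5.37 in treated MM.1S against 5.46 and 5.41 in controls, and 12.76 and 12.84 in treated U266 against 5.94 and 6.07 in controls. MT1E read 6.95 and 6.32 against 7.17 and 6.91 in MM.1S and 10.58 and 10.48 against 7.07 and 6.99 in U266, treated before control. Only the treated U266 arrays stood apart in either gene. MT2A, the most widely expressed member, rose in both lines, by 1.37 in MM.1S and 4.61 in U266, a difference of -3.24, and MT1X by 2.17 and 3.73, a difference of -1.56. MT1F, not above background in MM.1S or in untreated U266, rose at least 1.42-fold in U266. MTF1, the zinc-sensing factor that switches these genes on, fell by 0.50 in MM.1S and rose by 0.50 in U266. SLC30A1, a zinc exporter and another known MTF1 target, changed by -0.29 in MM.1S and -0.24 in U266, and its difference of -0.05 missed the threshold. When arrays were scaled to probes detected on all 12 arrays, 6 of the 8 genes were called up in MM.1S too, against 51.9% of all genes.

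Promoters are shown for 2 genes that rose more in U266 and for SLC30A1, whose response was not called different. Capitals mark the metal response element, searched as TGCACNC or TGCGCNC on both strands, in 300 bases around the RefSeq start (GRCh38.p14). MT1H (chr16:56669564-56669863, plus strand) and MT2A (chr16:56608334-56608633, plus strand) each held 8 matches, and SLC30A1 (chr1:211579112-211579411, minus strand) held 2. MT1X held 4 and MTF1 held 0, so 4 of the 5 list members with a promoter entry had at least 1. That compares with 29.6% of all promoters and 38.5% of those of tested genes. MT1E, MT1F and MT1G had no entry.
MT1H: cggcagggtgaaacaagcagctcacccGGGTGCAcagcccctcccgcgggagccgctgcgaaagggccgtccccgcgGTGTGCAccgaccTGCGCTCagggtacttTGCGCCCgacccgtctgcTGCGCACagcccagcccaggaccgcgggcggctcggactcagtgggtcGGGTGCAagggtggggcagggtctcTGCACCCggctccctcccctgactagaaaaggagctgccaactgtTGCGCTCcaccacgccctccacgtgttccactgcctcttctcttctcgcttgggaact
MT2A: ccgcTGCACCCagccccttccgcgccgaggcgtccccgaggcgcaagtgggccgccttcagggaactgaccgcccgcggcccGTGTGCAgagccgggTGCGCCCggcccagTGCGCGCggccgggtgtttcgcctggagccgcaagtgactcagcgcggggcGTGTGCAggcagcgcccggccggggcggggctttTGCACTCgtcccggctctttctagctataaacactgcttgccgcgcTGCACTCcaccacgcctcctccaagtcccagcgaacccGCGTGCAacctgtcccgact
SLC30A1: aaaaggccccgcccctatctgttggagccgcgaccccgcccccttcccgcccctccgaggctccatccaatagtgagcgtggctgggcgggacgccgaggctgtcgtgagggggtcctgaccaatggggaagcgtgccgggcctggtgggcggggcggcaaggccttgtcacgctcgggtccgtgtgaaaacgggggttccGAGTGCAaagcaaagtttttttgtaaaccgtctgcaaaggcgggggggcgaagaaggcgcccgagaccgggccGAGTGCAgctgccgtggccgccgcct

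Heat shock genes split into a few with much larger rises in MM.1S and many with a difference below 0. Of 24 measured, 4 had a called difference above 0 (22.1% of all genes) and 15 below 0 (41.8%), and 9 were called in opposite directions (6.41%). The median difference of the list was 0.40 below that of all genes, and 0.36 to 0.45 below it under the 5 scalings. In MM.1S 8 of 24 were called up (24.4% of all genes) and 13 down (50.7%), and in U266 15 up (12.8%) and 1 down (15.4%). The directions within each line depended on the scale. Under median scaling of all probes U266 had 6 called up (3.62% of all genes) and 7 down (65.4%), with a median response of 0.07 against 0.41 with the authors' values.

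HSPA6, the strictly inducible HSP70, read 12.49 and 12.44 in treated MM.1S against 5.66 and 5.66 in controls, and 8.03 and 8.06 in treated U266 against 5.94 and 6.02 in controls. It was not above background in either control, rose at least 63.3-fold in MM.1S and at least 3.13-fold in U266, and its fitted difference of 4.74 has no bound, since both controls lay at background. HSPA1A and HSPA1B, near-identical inducible HSP70 copies, had fitted differences of 4.44 and 0.68, but HSPA1A was not above background in U266, where HSPA1B rose by 3.04. HSPB1, a small heat shock protein, rose by 2.64 in MM.1S and fell by 0.44 in U266. BAG3, an HSP70 co-chaperone, rose by 1.80 in MM.1S and 1.81 in U266, and its difference of -0.0071 ± 0.13 (SE) missed the threshold.

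Several chaperones expressed without stress fell in MM.1S and rose in U266 on the authors' scale. HSPA8, the constitutive HSP70, fell by 0.76 in MM.1S and rose by 0.31 in U266, HSPA4 fell by 0.57 and rose by 0.62, and DNAJB6 fell by 1.35 and rose by 0.56. A second DNAJB6 probe gave -1.39 in MM.1S and -0.17 in U266, so its rise in U266 rests on 1 probe. HSPD1, the mitochondrial chaperonin, fell by 0.65 and rose by 0.38 by its brightest probe, and its other 2 probes gave differences of -0.49 and -0.05. HSP90AA1, an HSP90 isoform, differed by -0.71 by its brightest probe and by -0.26 and -0.26 by its other 2 probes. Scaled to probes detected on all 12 arrays, 6 heat shock genes had a difference above 0 and 10 below 0. Then 14 were called up in MM.1S (51.9% of all genes) and 18 in U266 (29.4%).

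Promoters of the inducible HSP70 genes are shown because they had the largest fitted differences in the list. Capitals mark GAANNTTC, the core of a heat shock element, which reads the same on both strands, in the same RefSeq windows. HSPA6 (chr1:161524290-161524589, plus strand) held 2 matches and HSPA1A (chr6:31815293-31815592, plus strand) held 1. Of the 22 list members with a promoter entry, 9 held at least 1, against 6.77% of all promoters and 4.78% of those of tested genes. These 9 included both HSPA6, with its difference above 0, and HSPA8, DNAJA1 and DNAJB6, with differences below 0.
HSPA6: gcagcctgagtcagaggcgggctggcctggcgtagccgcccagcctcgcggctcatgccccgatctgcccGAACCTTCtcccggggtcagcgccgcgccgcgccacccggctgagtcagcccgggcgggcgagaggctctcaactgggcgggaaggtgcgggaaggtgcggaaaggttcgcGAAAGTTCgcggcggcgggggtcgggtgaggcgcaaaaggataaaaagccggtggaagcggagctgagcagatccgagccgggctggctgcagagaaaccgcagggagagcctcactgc
HSPA1A: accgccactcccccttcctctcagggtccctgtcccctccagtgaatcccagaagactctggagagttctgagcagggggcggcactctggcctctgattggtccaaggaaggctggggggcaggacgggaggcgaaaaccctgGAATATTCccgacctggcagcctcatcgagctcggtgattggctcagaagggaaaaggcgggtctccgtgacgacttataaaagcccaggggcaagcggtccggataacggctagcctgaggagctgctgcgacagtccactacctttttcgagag

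**Figure D4:**
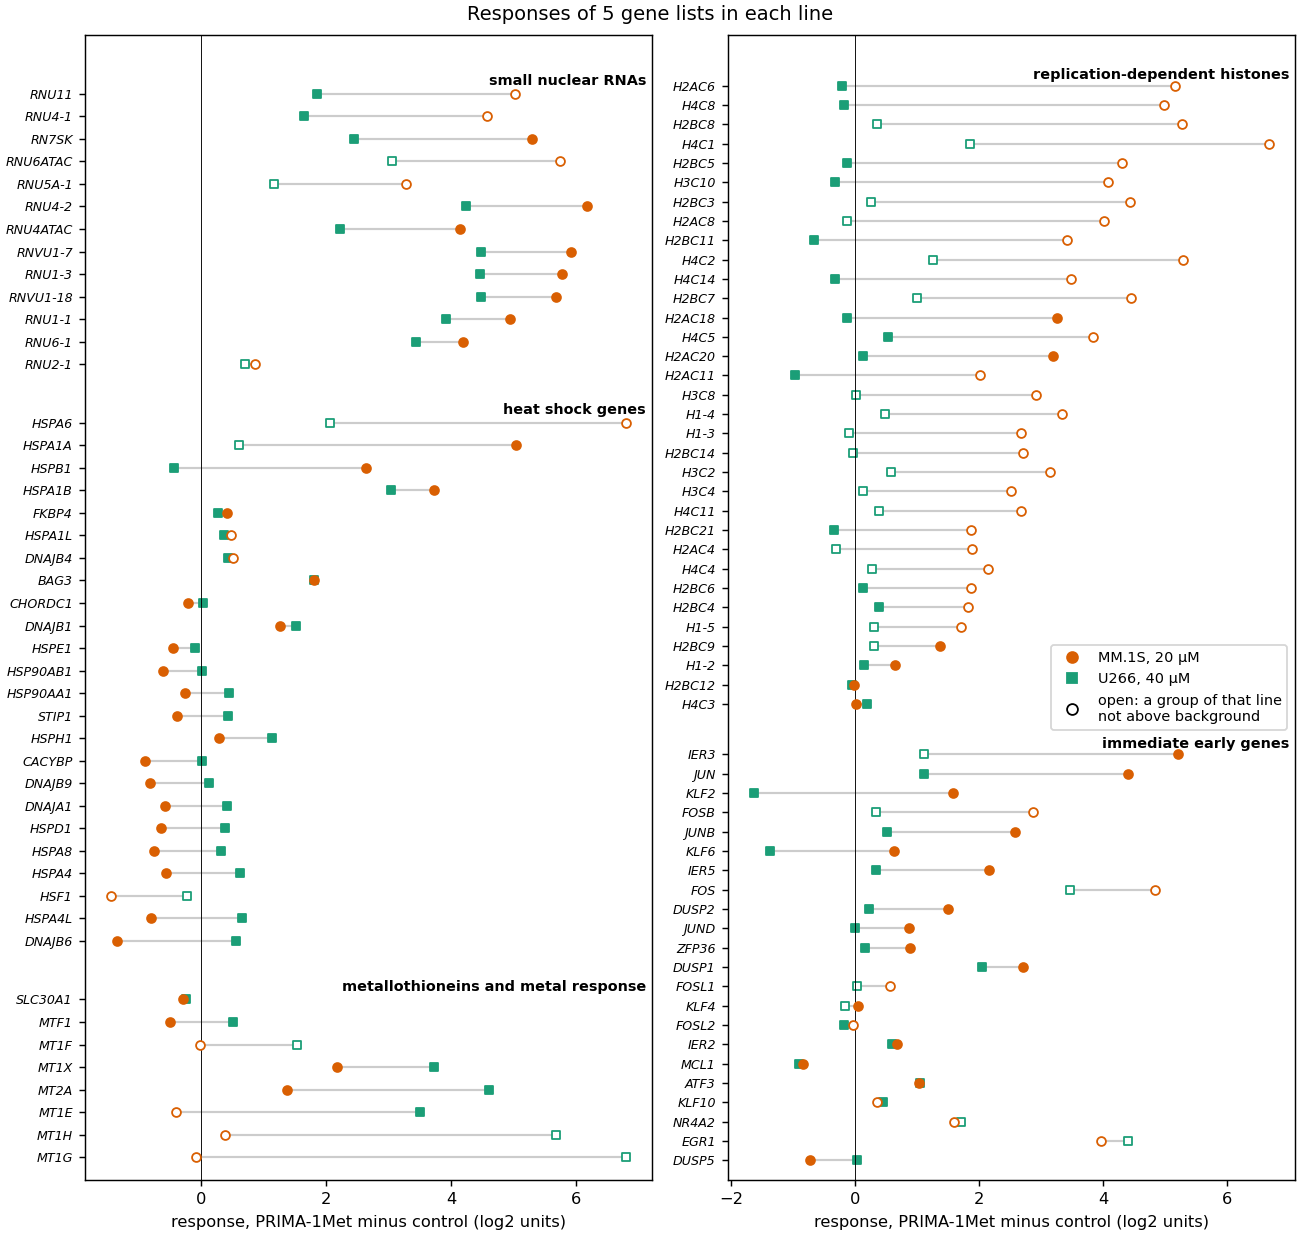
Responses of the members of 5 gene lists in MM.1S (circles) and U266 (squares), as PRIMA-1Met minus control in log2 units, joined by a line per gene, with open symbols where a group of that line was not above background. Histones reached up to 6.67 in MM.1S with U266 mostly near 0, while the U266 squares of the metallothioneins lay up to 6.80.

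Histone genes rose in MM.1S, and fewer of them were called up in U266. Of 33 measured replication-dependent histone genes, whose messages normally lack a poly(A) tail, 31 had a called difference above 0, against 22.1% of all genes, and 0 lay below. In MM.1S 31 were called up (24.4% of all genes), and in U266 7 up (12.8%) and 2 down (15.4%). The MM.1S-only rule was met by 20 (18.4%). The median difference was 3.18 above that of all genes, and 2.94 to 3.75 above it under the 5 scalings. Under median scaling of all probes 2 of the 33 had a difference below 0 (61.1% of all genes). U266 then had 7 called up (3.62%) and 10 down (65.4%). Scaled to probes detected on all 12 arrays, U266 had 18 called up (29.4% of all genes) and 4 down (15.6%), beside 32 called up in MM.1S (51.9%).

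H2AC18, an H2A gene with a near-identical neighbour in H2AC19, read 10.52 and 10.47 in treated MM.1S against 7.30 and 7.17 in controls, and 11.21 and 11.24 in treated U266 against 11.30 and 11.41 in controls. H4C8, an H4 gene, read 10.71 and 10.77 in treated MM.1S against 5.71 and 5.81 in controls, where it was not above background, and 9.49 and 9.31 in treated U266 against 9.60 and 9.56 in controls. In both genes treated MM.1S lay far above its own controls and nearer to either U266 group. H4C8 rose at least 19.2-fold, H2AC6 at least 16.1-fold and H3C7 at least 14.9-fold in MM.1S, with lower bounds on the difference of 4.44, 4.23 and 4.30. Of the 31 genes with a called difference, 27 were not above background in untreated MM.1S. Of these 27, 11 were detected on both untreated U266 arrays and thus lower in untreated MM.1S, while 16 were above background in neither control and have no order there. The median signal over the 33 genes, those at background included, was 9.06 in treated and 5.69 in untreated MM.1S, and 7.01 in treated and 6.35 in untreated U266.

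Small nuclear RNAs, the RNA parts of the spliceosome and related particles, rose in both lines and more in MM.1S. All 13 measured were called up in MM.1S (24.4% of all genes) and 12 in U266 (12.8%). A difference above 0 was called for 12 (22.1%). The median response was 5.03 in MM.1S and 3.06 in U266. RNU11, of the minor spliceosome, read 11.24 and 11.09 in treated MM.1S against 6.23 and 6.05 in controls, and 8.35 and 8.44 in treated U266 against 6.54 and 6.55 in controls, a rise of at least 25.8-fold in MM.1S and a difference of at least 2.84. RN7SK, which holds back the elongation factor P-TEFb, rose by 5.29 in MM.1S and 2.45 in U266. RNU2-1, not above background in MM.1S, was the member with no called difference (0.17). The median difference stayed 1.84 to 2.29 above that of all genes under the 5 scalings.

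Immediate early genes, which cells switch on within minutes of a stimulus, rose more in MM.1S. Of 22 measured, 13 had a called difference above 0 (22.1% of all genes) and 2 below 0, with a median response of 1.26 in MM.1S and 0.34 in U266. The median difference was 0.97 above that of all genes, and 0.94 to 1.05 above it under the 5 scalings. IER3, an early-response survival gene, read 12.44 and 12.61 in treated MM.1S against 7.23 and 7.40 in controls, and 7.40 and 7.28 in treated U266 against 6.08 and 6.37 in controls, where it was not above background. The treated MM.1S arrays stood far above the other 3 groups, with a rise of 5.21 in MM.1S and of at least 1.92-fold in U266. JUN, an AP-1 subunit, rose by 4.41 in MM.1S and 1.11 in U266. KLF6 rose by 0.63 in MM.1S and fell by 1.37 in U266, as its relative KLF2 did. ATF3, a stress transcription factor, rose by 1.02 and 1.04 with a difference that missed the threshold, and EGR1, a zinc-finger factor not above background in either control, rose at least 10.8-fold in MM.1S and at least 17.9-fold in U266. With median scaling of all probes 9 differences lay above and 5 below 0.

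Targets of NF-kB, a transcription factor that myeloma cells often use for survival, moved both ways in each line. Of 18 measured, 7 were called up (24.4% of all genes) and 4 down (50.7%) in MM.1S. In U266 5 were called up (12.8%) and 6 down (15.4%). NFKBIA, which holds NF-kB in the cytoplasm, read 14.04 and 14.11 in treated MM.1S against 10.86 and 10.66 in controls, and 12.83 and 12.82 in treated U266 against 12.41 and 12.45 in controls. NFKBIZ, a nuclear relative, rose by 3.49 and 0.59. Both rose by over 3 log2 units in MM.1S, and their differences were 2.91 and 2.90. TNFAIP3, a ubiquitin-editing brake on the pathway, changed by -0.13 in MM.1S and fell by 1.36 in U266, and BIRC2, an apoptosis inhibitor of the same pathway, fell by 0.62 in MM.1S and rose by 0.89 in U266, with a second BIRC2 probe at a difference of 0.30. Over the 18 targets 8 differences lay above 0 (22.1% of all genes) and 3 below (41.8%). With median scaling of all probes 7 lay above and 7 below, and with scaling to probes detected on all 12 arrays 14 and 2. The median difference was 0.71 above that of all genes, and 0.71 to 1.15 above it under the 5 scalings.

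Cytokine signalling genes moved unevenly. Of 19 IL6 and JAK-STAT genes 6 differences lay above 0 (22.1% of all genes) and 5 below (41.8%), with a median 0.24 above that of all genes (0.22 to 0.52 under the 5 scalings). With scaling to probes detected on all 12 arrays 12 lay above and 1 below, and with median scaling of all probes 3 and 8. JAK1, a receptor-bound kinase, read 5.52 and 5.40 in treated MM.1S, not above background, against 8.71 and 8.64 in controls, and 7.64 and 7.28 in treated U266 against 8.18 and 8.16 in controls, a fall of at least 3.12-fold in MM.1S. Its difference was at least 1.91-fold, a bound of -0.93. TYK2, a related kinase, rose by 1.13 in MM.1S and fell by 0.52 in U266. IL6, the growth factor that U266 is known to make for itself, was not above background in MM.1S and fell by 1.58 in U266. Among 25 interferon response genes, 9 differences lay above 0 (22.1% of all genes) and 6 below (41.8%), and with scaling to probes detected on all 12 arrays 19 lay above and 3 below. Their median difference was 0.56 above that of all genes (0.52 to 1.17 under the 5 scalings). Of the 25 genes 8 fell in MM.1S (50.7% of all genes) and 14 in U266 (15.4%). IRF7, which drives interferon genes, rose by 1.77 in MM.1S and fell by 0.57 in U266, and did so under all 5 scalings. OAS2, an antiviral enzyme, fell by 1.42 in MM.1S and changed by 0.0041 in U266 by its brightest probe. Its other probes gave -1.52, -1.37 and -1.03 in MM.1S and -0.15, -0.74 and -1.19 in U266, so its U266 response depends on the probe.

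On the authors' scale most measured genes of protein turnover fell in MM.1S, and fewer fell in U266. Of the proteasome subunits 23 of 27 fell in MM.1S and 3 in U266, and of the endoplasmic reticulum genes 18 of 21 and 6. Over all genes 50.7% fell in MM.1S and 15.4% in U266. Under median scaling of all probes 27 proteasome subunits fell in MM.1S and 22 in U266. The endoplasmic reticulum genes then had 20 and 19 falls, against 75% and 65.4% of all genes. The small number of falls in U266 thus depends on the scale. Of 27 proteasome subunits, 22 differences lay below 0 (41.8% of all genes) and 2 above, with a median response of -0.74 in MM.1S and -0.06 in U266. Of 21 genes for endoplasmic reticulum chaperones and the unfolded protein response, 16 lay below 0 and 1 above. EDEM1, which extracts misfolded glycoproteins, fell by 1.65 in MM.1S and changed by -0.11 in U266, and HSPA5, the main chaperone there, fell by 0.50 and rose by 0.48. Of 12 housekeeping genes, picked for no shared role, 10 lay below 0 and 0 above, with a median difference of -0.96, against -0.68 for proteasome subunits and -0.83 for the endoplasmic reticulum genes. The medians of these 3 lists stayed below that of all genes under the 5 scalings.

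Mitotic genes were the list with the most opposite calls beside heat shock genes, 9 of 26 (6.41% of all genes). Of the 26, 20 differences lay below 0 (41.8% of all genes) and 0 above. In MM.1S 22 fell (50.7%), and in U266 10 rose (12.8%). AURKA, a spindle kinase, read 9.67 and 9.71 in treated MM.1S against 10.57 and 10.73 in controls, and 10.68 and 10.68 in treated U266 against 10.08 and 10.15 in controls, a difference of -1.53 ± 0.11 (SE). CCNB1, the mitotic cyclin, fell by 0.72 and rose by 0.59, and CENPA, the centromeric histone, fell by 1.17 and rose by 0.31. Each of the 3 was called in opposite directions. Under median scaling of all probes 18 of the 26 fell in U266 (65.4% of all genes) and 1 rose (3.62%), so the rise in U266 depends on the scale. Under each of the 5 scalings 20 or more differences lay below 0. DNA replication genes showed 15 of 26 below 0 and 3 above, and GINS4, a helicase subunit, was among the 3, with a rise of 1.69 in MM.1S.

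Of the antioxidant genes, 13 of 17 NRF2 targets fell in MM.1S (50.7% of all genes) and 6 in U266 (15.4%), and 13 of 22 glutathione and thioredoxin genes fell in MM.1S and 5 in U266. Of the 17 NRF2 targets 11 differences lay below 0 (41.8% of all genes) and 2 above, and of 22 glutathione and thioredoxin genes 11 below and 2 above. The medians of the NRF2 and the glutathione and thioredoxin lists lay 0.43 and 0.16 below that of all genes, and below it under each of the 5 scalings. With scaling to probes detected on all 12 arrays 5 NRF2 targets lay above and 8 below 0, and 8 and 8 of the glutathione and thioredoxin genes. TXNRD1, the cytosolic thioredoxin reductase, read 9.49 and 9.42 in treated MM.1S against 10.87 and 10.85 in controls, and 10.10 and 9.91 in treated U266 against 9.85 and 9.86 in controls, a difference of -1.56 by that probe and -0.29 by another. SRXN1, which restores oxidised peroxiredoxins, fell by 0.91 and rose by 0.63. The arrays of SRXN1 moved apart in the 2 lines, and its rise in U266 missed the threshold under median scaling of all probes (0.05). HMOX1, heme oxygenase, changed by -0.38 in MM.1S, where treated arrays were not above background, and -0.37 in U266, with a difference of -0.006 that missed the threshold. A second probe of GCLM, a subunit of glutathione synthesis, gave a difference of 2.40 against 0.13 by the brightest.

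Known p53 targets moved both ways. Of 21 measured, 4 differences lay above 0 (22.1% of all genes) and 9 below 0 (41.8%), and with scaling to probes detected on all 12 arrays 12 lay above and 3 below. The list median lay 0.16 below that of all genes, and between 0.18 below and 0.37 above it under the 5 scalings. GADD45A, a growth arrest gene, read 10.34 and 10.30 in treated MM.1S against 9.25 and 9.28 in controls, and 7.45 and 7.51 in treated U266 against 8.21 and 8.19 in controls. Its difference was 1.77 ± 0.10 by that probe. A second probe changed by -0.12 in MM.1S and -0.58 in U266, a difference of 0.46, so the rise in MM.1S rests on 1 probe. BBC3, the pro-death PUMA, rose by 1.06 in MM.1S and changed by -0.03 in U266, a difference of 1.09. Under median scaling of all probes it changed by -0.18 in MM.1S and its difference of 0.42 missed the threshold (limma adjusted p = 0.14). ZMAT3 rose by 2.41 and 0.81 by its brightest probe, and its other 2 probes gave differences of -0.96 and -1.50. CDKN1A, the cell cycle inhibitor p21, changed by -0.60 in MM.1S and -0.16 in U266 by its brightest probe, a difference of -0.44, and by 4.23 and 0.80 by a dimmer probe detected on 3 of 8 arrays, a difference of 3.43. Its direction is thus unsettled on these arrays.

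MDM2, the p53 ubiquitin ligase, not above background in U266, had a difference of 0.08 and PMAIP1, the pro-death NOXA, one of -0.06 with no MM.1S or U266 group above background, and neither was called. PPM1D, a phosphatase that resets p53, fell at least 2.40-fold in MM.1S and changed by 0.27 in U266. In the BCL2 family 5 of 16 differences lay above 0 (22.1% of all genes) and 5 below (41.8%), with a median 0.35 above that of all genes (0.29 to 0.47 under the 5 scalings). With scaling to probes detected on all 12 arrays 11 lay above and 3 below, and with median scaling of all probes 3 and 9. BCL2, the survival factor, fell by 1.08 in MM.1S and rose by 0.33 in U266 by its brightest probe, with differences of -1.07 and 0.99 by 2 others, and HRK, a pro-death member, rose by 1.91 and 0.39. IRF4 and MYC, the regulators on which myeloma cells depend, fell in both lines. IRF4 fell by 1.05 and 1.55 with a difference of 0.50 (adjusted p = 0.01), which turned to -0.56 under median scaling of all probes, and MYC fell by 0.91 in MM.1S and at least 1.45-fold in U266, where treated cells were not above background, with a difference of 0.28 that missed the threshold and turned to -0.35 under median scaling of all probes.

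Of 26 genes of the ATF4 response to amino acid stress 7 differences lay above 0 (22.1% of all genes) and 14 below (41.8%), with a median 0.30 below that of all genes (0.26 to 0.40 under the 5 scalings). With scaling to probes detected on all 12 arrays 11 lay above and 12 below, and with median scaling of all probes 4 and 18. DDIT4, an inhibitor of mTOR signalling, rose by 3.40 in MM.1S and 1.29 in U266, while SLC7A1, an arginine transporter, fell by 1.66 in MM.1S and changed by 0.16 in U266. PSAT1, of serine synthesis, fell by 1.12 and rose by 0.37. Of 18 tRNA synthetases 4 differences lay above 0 (22.1% of all genes) and 8 below (41.8%), of 14 sterol synthesis genes 1 and 9, of 22 MYC and ribosome biogenesis genes 9 and 6, of 17 splicing factors 6 and 7, and of 19 plasma cell genes 3 and 6. Under median scaling of all probes, where 13.1% and 61.1% of all genes lay above and below 0, the MYC list had 2 above and 15 below, splicing factors 1 and 12, plasma cell genes 0 and 15, tRNA synthetases 1 and 16 and sterol synthesis genes 0 and 12. The medians of the p53, plasma cell, splicing and tRNA synthetase lists changed side of the median of all genes between scalings.

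**Figure D5:**
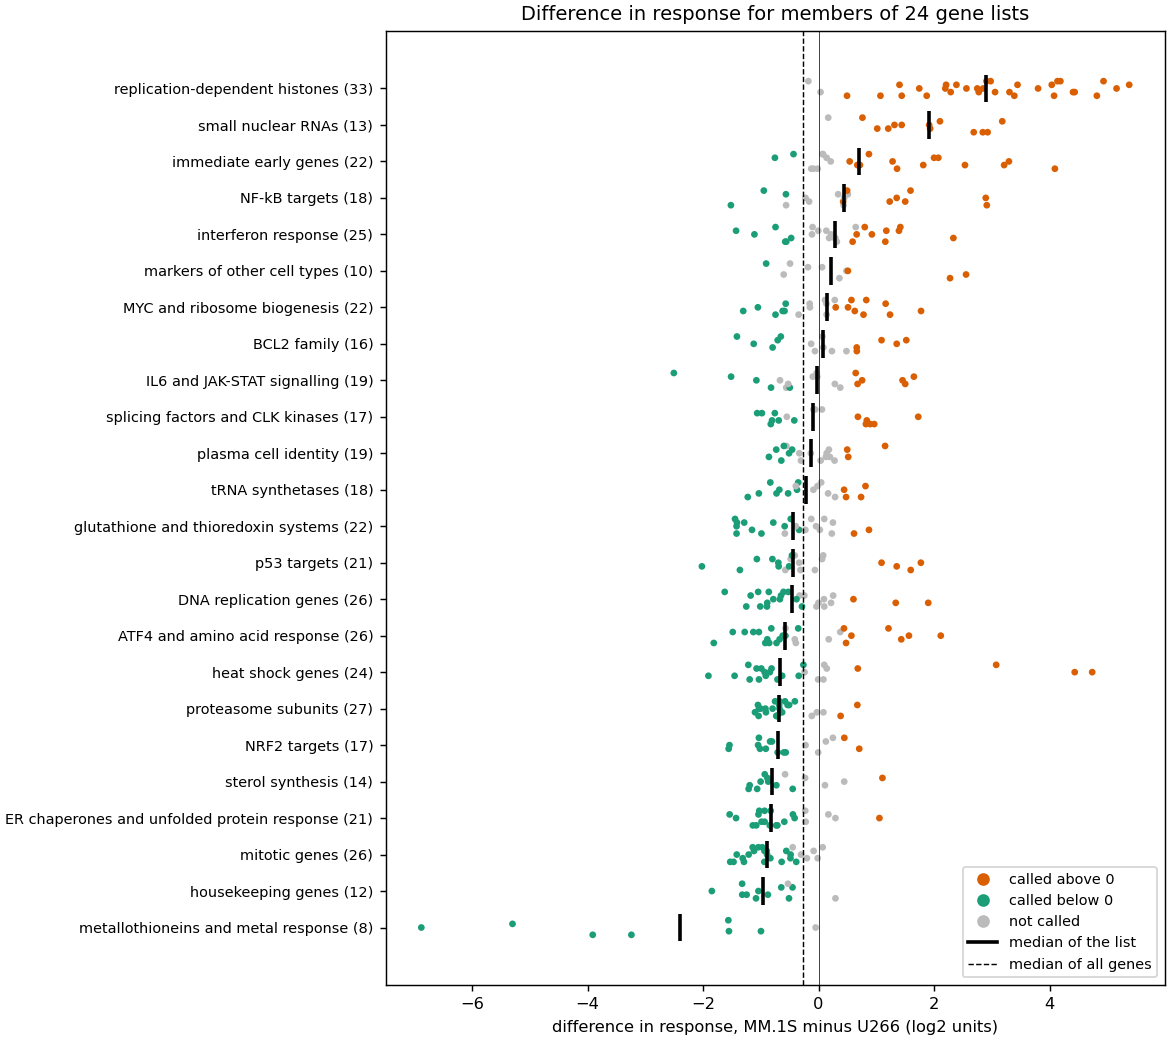
Difference in response, MM.1S minus U266, in log2 units for each measured member of 24 gene lists, with the number measured in brackets, a thick bar at the list median and a dashed line at the median of all genes (-0.28). Histones and small nuclear RNAs lie to the right, with medians of 2.91 and 1.92, and metallothioneins to the left, with a median of -2.40.

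Of 10 measured markers of other cell types, 3 had a difference above 0 (22.1% of all genes) and 1 below (41.8%). ALB, the serum albumin gene, read 11.48 and 11.46 in treated MM.1S against 6.59 and 6.76 in controls, and 9.02 and 9.14 in treated U266 against 6.52 and 6.60 in controls, and FCGR3A, an Fc receptor, rose at least 8.23-fold in MM.1S. The summed linear level of the 10 was 4632 and 4772 in treated MM.1S against 1236 and 1329 in controls, and 1401 and 1402 in treated U266 against 796 and 812 in controls. A sum gives most weight to its brightest members, in treated MM.1S ALB (mean 11.47) and FCGR3A (9.52). In MM.1S 3 of the 10 were called up (24.4% of all genes), 0 down and 7 not called. Markers detected on both arrays numbered 3 in treated MM.1S and 4 in its controls. PECAM1 read lower in treated MM.1S (mean 6.70 against 7.63), without a call. CD3D, CD3E and EPCAM were not above background in any MM.1S or U266 group. The part of these markers in the other results was not tested.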

How the data were processed

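The authors' deposited table of log2 values, quantile normalised over 12 arrays, was used for every main result. A second deposited table gave, per the file headers, a signal intensity and a detection p-value per probe; intensities below 0 show that background had been taken off. Per the submitters' processing notes the tools were BeadStudio, lumi and limma, without versions; no genome build of the probes was used here. In the table of intensities, columns of 9 arrays were displaced by 1 position from probe 22924 on, and were realigned (24399 probes; rank correlation with the log2 values 0.511 to 0.529 before and 1 after); 47321 of 47322 probes were analysed. Columns were matched to samples by title, with 0 unmatched.

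The filter kept 19357 probes whose detection p-value was below 0.01 on 2 or more of the 12 arrays, of which 4529 without a symbol were not tested. Of the analysed probes, 30111 had 1 symbol, 8 several and 17202 none. The brightest probe stood for each of 11305 genes, and 2841 genes had more than 1 kept probe. limma 3.58.1 in R 4.3.3 fitted 6 group means to 12 arrays (6 residual degrees of freedom) with eBayes, a two-sided moderated test and Benjamini-Hochberg adjustment over all genes per comparison; the script was tested on simulated data. Errors are standard errors of the fit, and n is 2 arrays a group, which limits the precision. The fit shares 1 spread per gene over all groups. The standard deviation of the difference between replicates was 0.36 in treated MM.1S and 0.16 to 0.21 in the other groups. Where both arrays of a group missed detection, its value was set per array to the lowest detected signal or its own, whichever was higher, and the fold is a bound.

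Members and the 24 gene lists were chosen with earlier results of these data known. Named genes were, among genes detected on all 8 arrays with separated groups, the 5 largest opposite responses in each direction and the 4 largest rises and falls per single-line class; the 3 largest bounds in each direction; up to 2 genes a list; and a fixed set that included PMAIP1, CDKN1A, MDM2, BBC3, MYC, IRF4, RASD1 and HMOX1. One item is not reported here. Further list members are given as examples, chosen after their values were seen. Replicate numbers do not pair the samples: the correlation of same-numbered arrays across genes was 0.0087, -0.0022 and 0.00087 in the 3 lines. Promoters are RefSeq's, matched by symbol for 64 of 86 named genes. Alternatives covered scaling, background, filter, probe choice, arrays, weights, block and a 2-fold rule without a test, which the series' design text describes.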

Additional observations from a re-analysis of the deposited data

Results flagged for a closer look

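Each of the following differs between the 2 lines by the test of the difference itself, limma's moderated test of the MM.1S response minus the U266 response. The difference was called for 7227 genes, and 725 of them were called in opposite directions in the 2 lines. Of the genes that rose in MM.1S and fell in U266, the difference was 3.21 for KLF2, 2.50 for FAAP100, 2.46 for BMP8B, 2.45 for CCL4L1 and 1.92 for C19orf48P. Of the genes that fell in MM.1S and rose in U266, it was -2.26 for ATP1B3, -2.16 for ZC3HAV1, -2.13 for NSF, -1.87 for SMNDC1 and -1.79 for ACTR6. Groups of 2 arrays were too small to look for single arrays far from the rest.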

How the results depend on the processing

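Of 86 named genes, 82 passed the threshold. Of these 82, 80 kept the direction of their difference under every alternative that gave a value and 76 kept direction and call. The difference turned to 1.50 for CDKN1A with the mean of its probes, to 1.30 for HMOX1 and 0.77 for PMAIP1 with scaling to probes detected on all 12 arrays, and to -0.56 for IRF4, -0.55 for MDM2 and -0.35 for MYC with scaling to the median of all probes. Of these 6 genes the authors' values called CDKN1A and IRF4. The 2-fold rule without a test gave 3103 genes for the difference, 3386 for MM.1S, 274 for U266, 8 opposite, 3225 in MM.1S only and 113 in U266 only. Scaling to the median of all probes gave 7797 genes for U266, 285 opposite and 199 in U266 only, scaling to probes detected on all 12 arrays 5089 and 1270 for U266 and opposite, and neqc 85 in U266 only. With probes detected on all 8 arrays there were 5315 genes for MM.1S, 815 in MM.1S only and 11 in U266 only, and with no filter 2105 for U266 and 373 opposite, from more or fewer genes tested. Leaving out 1 array in turn gave 1809 to 4094 genes for U266 and 375 to 975 opposite. With the replicate number as a block, 7165 differences, 8465 MM.1S responses, 3065 U266 responses, 682 opposite, 2115 MM.1S-only and 47 U266-only genes were called, and no named gene changed its call; the numbers did not pair the samples. Where no construction is named, the cause was not tested. Signals near background limit the 691 MM.1S-only falls whose treated arrays were not detected.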

Other observations

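Probes without a gene symbol were not tested among the named genes. Of 4529 such probes kept, 2423 had a called difference when all 19357 kept probes were fitted together, 1331 above and 1092 below 0. Several genes gave discordant probes that the brightest-probe rule passes over: a second MCL1 probe, of an apoptosis inhibitor, differed by 2.73 against 0.07, a second MZB1 probe, of a plasma cell chaperone, by 2.53 against 0.04, and a second XAF1 probe by 2.97 against 0.80. A second probe of PSMC1, a proteasome ATPase, differed by 1.86 against -0.51, and a second H2BC12 probe by 3.21 against 0.03. These genes were chosen after their values were seen.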
